A study of Mus musculus with 16 samples.

Results

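The response of the juvenile mouse amygdala to prenatal stress (PS) was compared between male and female offspring, gene by gene. The PS effect of a gene is its log2 expression in PS minus CTRL offspring of 1 sex, and the measure studied is the male PS effect less the female PS effect. A negative difference thus means that the male effect was the lower one. All genes with a mean above 0.5 CPM (gene values scaled to a common library total) in at least 1 of the 4 groups were tested, and genes on chromosomes X and Y were left out. This gave 13850 genes of the 17293 in the deposited table. Of the others, 2901 did not pass the filter, 522 lay on X or Y and 20 had no chromosome assigned.

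The amygdala is a group of nuclei in the temporal lobe that assigns emotional value to stimuli and drives fear and anxiety responses. Its basolateral part is built of glutamatergic neurons that resemble those of the cortex, and its central and medial parts hold mostly GABAergic neurons that send signals to the hypothalamus and brainstem. Firing of these neurons is set by ion channels and calcium handling, by the receptors and release machinery of their synapses, and by noradrenaline, peptides and steroid hormones, many of which act differently in the 2 sexes.

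RNA was sequenced from C57BL/6 offspring at postnatal day 28 (PN28), with 4 PS males, 4 CTRL males, 4 PS females and 4 CTRL females. PS offspring were carried by dams under chronic psychosocial stress during pregnancy, and the dams of CTRL offspring were left undisturbed. The authors cross-fostered other offspring, which were not sequenced. The PS offspring used here were thus also reared by stressed dams, and stress before birth and rearing cannot be told apart in the PS effect. The 4 libraries of a group came from different litters within a sex, and the sources used here do not say whether males and females shared litters. Libraries carry the authors' numbers, which are LM25 to LM28 for PS males, LM17 to LM20 for CTRL males, LM29 to LM32 for PS females and LM21 to LM24 for CTRL females. The deposited values are CPM of values that the authors had already corrected for 2 factors of unwanted variation, and they sum to between 39989993 and 44275406 per library. The part of that correction that lay between groups cannot be recovered, so each effect holds whatever it added or took away.

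Among the markers of the labelled tissue, the basolateral genes Rspo2, Lmo3, Etv1 and Slc17a7 were well detected, with at least 81.7 CPM in every library. Of the central amygdala genes, Isl1 was listed at 0 in all 16 libraries, Foxp2 stayed at or below 0.393 CPM and Prkcd at or below 3.29 CPM, while Dlk1 had 19.1 to 123 CPM and the intercalated cell genes Tshz1 and Meis2 had 22 to 48.1 CPM and 10.8 to 44.4 CPM. The dentate gyrus gene Prox1 reached 133 CPM. The mean log2 level of 14 hippocampal markers ran from 5.34 to 6.62 in PS males, from 4.82 to 5.45 in CTRL males, from 4.41 to 5.58 in PS females and from 5.26 to 6.04 in CTRL females. LM28 and LM25 of the PS males had the highest and the third highest level, LM22 of the CTRL females the second, and LM32 of the PS females the lowest. Xist and Ddx3y went against the labelled sex in 0 libraries. In bulk tissue, fewer cells of a type and less RNA per cell cannot be told apart.

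The PS effect differed between male and female amygdala for 226 genes, and its sign was opposite in the 2 sexes for each of them. The difference of the PS effects passed the thresholds, an adjusted p under 0.05 (limma, Benjamini-Hochberg over all genes) and a fold over 1.5, for 226 of 13850 genes (1.63%). The male effect was the lower one for 175 of them (1.26%), among them channels, calcium pumps, release proteins and receptors. For 51 genes (0.368%) the male effect was the higher one, among them Glp2r, Nrp1 and several genes of the extracellular matrix. With CPM not scaled further, 226 genes passed too, of which 130 were lower and 96 higher, and 181 of them were shared with the 226 above. The sizes ran from 0.59 to 2.85 on the log2 scale with a median of 0.84. With the levels of the hippocampal and the central amygdala marker lists as covariates 0 genes passed with limma, with 1989 at an unadjusted p under 0.05.

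The 226 genes were chosen by this difference in these libraries, so signs, classes and separation of groups below describe them, and nothing is read from the shares of all tested genes given beside them. Every one of the 226 genes had a PS effect of one sign in males and of the other sign in females (58.7% of all tested genes). In 83 genes the higher group exceeded the lower by over 25% in each sex, and these are called reversing genes here. They made up 36.7% of the called genes (1.51% of the tested genes). Of the other called genes, 130 had the larger effect in males and 13 in females. The larger effect was in females for 20 of the 83 reversing genes. Of the reversing genes, 56 were lower and 27 higher in the male effect. These classes rest on the size of the effects and have no test of their own. Of the 226 genes, 214 had the sexes further apart in PS than in CTRL offspring, with a median absolute log2 sex difference of 0.58 in PS and 0.23 in CTRL. The same was not counted over all tested genes.

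**Figure D1:**
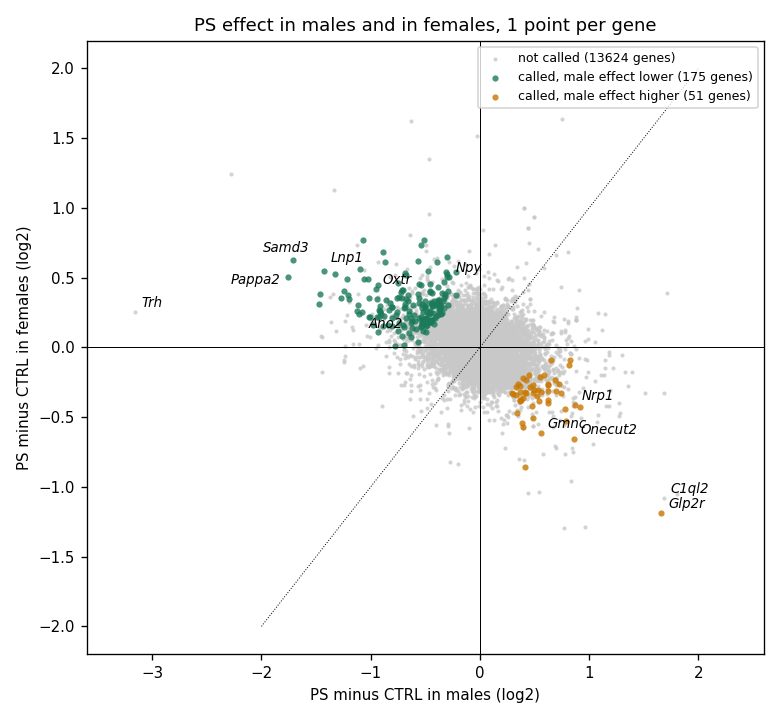
PS effect in males (x axis, log2) against PS effect in females (y axis, log2), 1 point per gene for the 13850 genes tested. Points on the dotted line have equal effects in both sexes. The 175 called genes with the lower male effect lie in the upper left and the 51 with the higher male effect in the lower right.

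PS effects were called in males and not in females when each sex was tested alone. PS against CTRL males gave 143 genes past the same thresholds (1.03%), of which 23 were higher (0.166%) and 120 lower (0.866%) in PS males. In females 0 genes passed (0%) with limma, with 1731 genes at an unadjusted p under 0.05 and a smallest adjusted p of 0.237. Of the 226 genes, 85 were also called in males and 0 in females. PS and CTRL libraries of males stood fully apart for 201 of the 226 genes (24% of all tested genes). Among female libraries, PS and CTRL stood apart for 54 of the 226 (7.25% of all tested genes). For 42 of the 226 genes the libraries were apart in both sexes (194 of the 13850 tested genes). For 13 of the 226 they were apart in neither, which was not counted over all tested genes.

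Among the called genes named here, the 3 largest differences with the lower male effect belonged to genes of low level. Samd3 had 0.123, 0.371, 0.05 and 0 CPM in PS males and 0.843, 1.83, 1.67 and 1.90 CPM in CTRL males. It had 1.38, 0.853, 1.81 and 2.06 CPM in PS females and 1.54, 0.937, 0.624 and 0.342 CPM in CTRL females. The male groups lay fully apart and the female groups overlapped, with a log2 difference of -2.34 ± 0.40 (SE, adjusted p = 0.0353 by limma). Pappa2, whose product cleaves IGF-binding proteins, had 0.970 ± 0.432 CPM in PS males, 4.26 ± 1.05 in CTRL males, 4.25 ± 2.48 in PS females and 2.59 ± 0.153 in CTRL females (SD, n = 4 each). Its log2 difference was -2.27 ± 0.43 (SE, adjusted p = 0.0376 by limma). Lnp1, on chromosome 16 from 56914344 to 56928061 (mm10), had the smallest adjusted p of all genes counted. Its 0.197, 0.445, 0.5 and 0.362 CPM in PS males stood against 1.22, 2.12, 1.86 and 2.06 CPM in CTRL males. Its 1.55, 1.54, 1.79 and 2.15 CPM in PS females stood against 1.28, 1.26, 0.855 and 0.855 CPM in CTRL females. The groups of both sexes were apart, PS males having the lowest values of all 16 libraries and PS females all lying above CTRL females, with a log2 difference of -1.98 ± 0.24 (SE, adjusted p = 0.0135 by limma).

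Further large differences in this direction came from Krt9, a keratin gene (-1.86), Plcz1, the phospholipase C of sperm (-1.84), Igfn1, a gene of skeletal muscle (-1.84), and Filip1, a regulator of filamin A (-1.71). Trpa1, a cation channel opened by irritants (-1.65), and Rasgef1c, an exchange factor for Ras (-1.57), followed, with limma adjusted p-values between 0.0353 and 0.0460 for these 6 genes. Because 0.5 CPM was added before the logarithm, these values understate the difference of genes near or below 1 CPM. Of the 226 genes, 13 had a mean under 1 CPM.

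The called calcium handling genes had the lower male effect. In a list of 32 tested genes for calcium pumps, calcium stores, CaMKII and calcium sensors, 5 passed with the lower male effect and 0 with the higher one. This was 15.6% of the list, against 1.63% of all tested genes, a share that stands beside the counts of the lists below too. The median log2 difference of the list was -0.14, against 0.01 over all tested genes. Camk2d, the delta chain of the calcium and calmodulin dependent kinase, had 64.4, 80.6, 65.2 and 33.3 CPM in PS males and 108, 126, 121 and 163 CPM in CTRL males. In PS females it had 130.0, 86.6, 132 and 165 CPM and in CTRL females 116, 97.8, 109 and 80.1 CPM. Male groups did not overlap, while 1 PS female, LM30, fell among the CTRL females, and the log2 difference was -1.54 ± 0.36 (SE, adjusted p = 0.0446 by limma). Atp2b4, which encodes a calcium pump of the plasma membrane, had 189 ± 55.0 CPM in PS males, 387 ± 78.8 in CTRL males, 388 ± 97.8 in PS females and 322 ± 34.9 in CTRL females (SD, n = 4 each), and a log2 difference of -1.38 ± 0.33 (SE, adjusted p = 0.0460 by limma). Hpcal1, a neuronal calcium sensor, had a difference of -1.38 ± 0.33 (SE, adjusted p = 0.0460 by limma). In the other settings tried, the difference smallest in size was -0.56 for Camk2d, -0.43 for Atp2b4 and -0.50 for Hpcal1. The calls of these genes were lost in 7, 11 and 10 of 27 such settings. Trdn, which encodes the triadin that anchors calcium release channels, had 0.105 ± 0.0590 CPM in PS males against 0.792 ± 0.226 in CTRL males and 0.816 ± 0.382 CPM in PS females against 0.406 ± 0.307 in CTRL females (SD, n = 4 each), and a difference of -1.67 ± 0.34 (SE, adjusted p = 0.0386 by limma). Its mean passed the 0.5 CPM filter only in CTRL males and PS females, where it was highest. The call of Trdn thus rests in part on that filter.

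Of 77 tested potassium channel genes, 5 had the lower and 1 the higher male effect, with a median log2 difference of -0.07 (0.01 with CPM not scaled further). Of the 5, Kcnf1, Kcnv1 and Kcng1 encode silent subunits, which open no channel alone and alter Kv2 channels when they join them. Kcnf1 had 141, 139.8, 124 and 98.8 CPM in PS males and 191, 178, 175 and 208 CPM in CTRL males. It had 180.2, 168, 223 and 214 CPM in PS females and 179, 159, 169 and 152 CPM in CTRL females. All PS males lay below all other libraries, with a log2 difference of -0.91 ± 0.18 (SE, adjusted p = 0.0376 by limma). Kcnv1 had a difference of -1.20 ± 0.27 (SE, adjusted p = 0.0446 by limma) and Kcng1 of -0.71 ± 0.17 (SE, adjusted p = 0.0446 by limma). Kcnj4, an inward rectifier, had effects of -0.50 in males and 0.29 in females on the log2 scale, and a difference of -0.80 ± 0.16 (SE, adjusted p = 0.0386 by limma).

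Ano2, a chloride channel opened by calcium whose gene lies on chromosome 6 from 125690419 to 126040126, was the 1 called gene of 18 chloride channel genes. It had 7.98, 11.1, 10.8 and 8.30 CPM in PS males and 15.9, 20.5, 22.1 and 20.8 CPM in CTRL males, with PS males at the lowest values of all groups. It had 20.7, 15.1, 18.1 and 17.1 CPM in PS females and 15.7, 16.2, 14.7 and 13.3 CPM in CTRL females. Only LM30 of the PS females lay within the CTRL female range, and the log2 difference was -1.33 ± 0.19 (SE, adjusted p = 0.0268 by limma). Of 23 calcium channel subunits, 2 passed, both with the lower male effect, and the list had a median of -0.23. They were Cacnb3, a cytoplasmic subunit (-0.63, SE 0.14, adjusted p = 0.0446 by limma), and Cacng5, which also serves AMPA receptors. In the list of 15 sodium and HCN channels 0 genes passed (limma, 5 at an unadjusted p under 0.05).

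Of 18 auxiliary proteins of AMPA receptors, the main fast glutamate receptors, 3 had the lower male effect, and the list had a median log2 difference of -0.24. Gsg1l, which slows recovery of AMPA receptors, had 8.62, 11.7, 12 and 8.17 CPM in PS males and 12.9, 14.5, 14.6 and 15.8 CPM in CTRL males. It had 14.5, 16.2, 23.2 and 20.5 CPM in PS females and 15.4, 12.3, 8.83 and 12 CPM in CTRL females. The effects of -0.57 in males and 0.62 in females were near mirror images, with only LM29 of the PS females below the highest CTRL female, and the log2 difference was -1.19 ± 0.26 (SE, adjusted p = 0.0430 by limma). Cnih3, a cornichon that carries AMPA receptors to the surface, had 80.0 ± 14.7 CPM in PS males, 129 ± 12.7 in CTRL males, 140.3 ± 33.0 in PS females and 117 ± 5.35 in CTRL females (SD, n = 4 each), and a difference of -1.02 ± 0.23 (SE, adjusted p = 0.0446 by limma). Cacng5 had a difference of -1.02 ± 0.24 (SE, adjusted p = 0.0446 by limma), and this call was lost in 12 of 27 other settings. Among 16 AMPA, kainate, NMDA and delta receptor subunits 0 passed with limma, with 8 at an unadjusted p under 0.05, and 13 had a negative difference (9 with CPM not scaled further). The antisense transcript Grin1os reversed (-1.48, SE 0.34, adjusted p = 0.0446 by limma), but it overlaps Grin1 on the other strand by 7706 bases, and as the strand setting of the counting is not stated, reads of the pair cannot be told apart. Of 14 tested GABA receptor subunits not on X or Y 0 passed (limma, 0 at an unadjusted p under 0.05). Subunit genes on X or Y were left out, so this count does not speak for them.

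On the presynaptic side, the called genes had the lower male effect. Of 30 genes of the release machinery 3 passed in this direction and 0 in the other, 25 had a negative difference, and the list median was -0.32. Stx1a, the plasma membrane SNARE, had 117, 102, 85.8 and 98.2 CPM in PS males and 144, 114, 108 and 143 CPM in CTRL males. In PS females it had 154, 150.1, 205 and 181 CPM and in CTRL females 140.0, 118, 114 and 87.2 CPM. Here the female groups were apart and the male groups overlapped, with effects of -0.39 in males and 0.61 in females and a log2 difference of -1.01 ± 0.24 (SE, adjusted p = 0.0446 by limma). Rims1, which builds the active zone, had 136 ± 5.78 CPM in PS males, 169.7 ± 13.1 in CTRL males, 198 ± 32.6 in PS females and 157 ± 12.6 in CTRL females (SD, n = 4 each), and a difference of -0.72 ± 0.17 (SE, adjusted p = 0.0446 by limma). Doc2a, a calcium sensor of spontaneous release, had a difference of -1.0 ± 0.24 (SE, adjusted p = 0.0446 by limma). It overlaps Ino80e on the other strand by 1746 bases. Of 15 synaptotagmins 2 passed, Syt10 (-1.03, SE 0.16, adjusted p = 0.0314 by limma) and Syt5 (-0.70, SE 0.17, adjusted p = 0.0458 by limma), both with the lower male effect. The inhibitors of G protein signaling Rgs14 (-0.99, SE 0.20, adjusted p = 0.0376 by limma) and Rgs12 (-0.63, SE 0.14, adjusted p = 0.0432 by limma) were the called genes among 20 RGS genes.

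Receptors for oxytocin, estrogen and noradrenaline were lower in the male effect. Oxtr, the oxytocin receptor on chromosome 6 from 112473683 to 112489943, had 12.9, 23.4, 26.4 and 23.5 CPM in PS males and 27.7, 45.5, 41.1 and 45.0 CPM in CTRL males. It had 34.4, 25.9, 33.1 and 34.0 CPM in PS females and 22.3, 25.6, 29.7 and 19.3 CPM in CTRL females. The male groups did not overlap, and in females only LM30 lay inside the CTRL range. The effects were -0.95 in males and 0.42 in females, with a log2 difference of -1.37 ± 0.32 (SE, adjusted p = 0.0446 by limma). Esr1, the estrogen receptor alpha, had 3.04 ± 0.831 CPM in PS males, 6.40 ± 1.91 in CTRL males, 7.10 ± 2.07 in PS females and 5.97 ± 0.506 in CTRL females (SD, n = 4 each), and a difference of -1.23 ± 0.31 (SE, adjusted p = 0.0475 by limma). These were the 2 called genes among 37 receptors for peptides and hormones, whose median was -0.22. The call of Oxtr was lost in 8 and that of Esr1 in 12 of 27 other settings, where the difference of Esr1 smallest in size was -0.49. Of 10 adrenergic and dopamine receptors 2 passed, Adra2a (-0.78, SE 0.18, adjusted p = 0.0446 by limma), a receptor for noradrenaline, and Adrb3 (-1.09, SE 0.27, adjusted p = 0.0471 by limma), which had 0.646 ± 0.0815 CPM in PS males against 1.47 ± 0.413 in CTRL males and 1.52 ± 0.424 CPM in PS females against 1.18 ± 0.377 in CTRL females (SD, n = 4 each).

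Dbh, which makes noradrenaline from dopamine, had values mostly under 1 CPM. It had 0.246, 0.297, 0.525 and 0.410 CPM in PS males and 0.703, 0.745, 0.858 and 0.618 CPM in CTRL males. It had 1.74, 0.474, 1.34 and 0.949 CPM in PS females and 0.560, 0.492, 0.370 and 0.367 CPM in CTRL females. PS males were all below CTRL males, 3 of 4 PS females were above all CTRL females, and the log2 difference was -1.27 ± 0.30 (SE, adjusted p = 0.0446 by limma). The mean of Dbh passed the 0.5 CPM filter only in CTRL males and PS females, where it was highest. The call of Dbh thus rests in part on that filter. The noradrenergic cells that make this enzyme lie in the brainstem, and of the 8 markers of such neurons 5 were tested and only Dbh passed. Slc22a3, a transporter that clears monoamines, had 0.252 ± 0.0321 CPM in PS males, 0.518 ± 0.0454 in CTRL males, 0.543 ± 0.131 in PS females and 0.382 ± 0.0626 in CTRL females (SD, n = 4 each), and a difference of -0.71 ± 0.16 (SE, adjusted p = 0.0446 by limma). Its mean too passed the filter only in CTRL males and PS females, so the call of Slc22a3 rests in part on it.

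The neuropeptide genes Npy and Vgf both had the lower male effect. These were the 2 called genes of 34 neuropeptide genes, whose median log2 difference was -0.38. Npy, the peptide of a class of GABAergic interneurons, had 22.1, 26.5, 30.6 and 32.1 CPM in PS males and 33.1, 35.5, 31.1 and 29.6 CPM in CTRL males. It had 33.3, 37.2, 41.1 and 46.2 CPM in PS females and 26.7, 27.9, 28.3 and 28.6 CPM in CTRL females. The female groups were fully apart and the male groups overlapped, with effects of -0.28 in males and 0.51 in females. Its log2 difference was -0.79 ± 0.17 (SE, adjusted p = 0.0438 by limma). Vgf, a granin of secretory vesicles, had 111, 142, 139 and 129 CPM in PS males and 163, 197, 174 and 173 CPM in CTRL males. In PS females it had 167, 176, 189 and 206 CPM and in CTRL females 151, 153, 163 and 144 CPM. Both sexes were apart, PS males below and PS females above their CTRL groups, with a log2 difference of -0.79 ± 0.14 (SE, adjusted p = 0.0353 by limma). Trh, the thyrotropin-releasing hormone gene, had the largest negative difference of the list (-3.42) and did not pass (limma, adjusted p = 0.0651).

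Genes of cell adhesion and axon guidance were called in both directions. Of 86 cadherins and protocadherins, 4 had the lower and 4 the higher male effect, with a list median of -0.32. Cdh4 (-1.63, SE 0.31, adjusted p = 0.0376 by limma) and Cdh13 (-0.75, SE 0.16, adjusted p = 0.0386 by limma) were lower, and Cdh11 (0.76, SE 0.13, adjusted p = 0.0353 by limma) and Pcdhb2 (0.81, SE 0.18, adjusted p = 0.0430 by limma) were higher in the male effect. A predicted gene on the same strand overlaps Pcdhb2 by 2813 bases, its whole length, so strand cannot tell reads of the pair apart. Cdh11 had 136, 107, 113 and 126 CPM in PS males and 90.8, 80.5, 82.3 and 74.9 CPM in CTRL males. It had 83.0, 88.0, 74.6 and 68.4 CPM in PS females and 88.9, 88.9, 96.2 and 111 CPM in CTRL females. PS males were the highest and PS females the lowest of the groups by their means, and neither sex overlapped between PS and CTRL.

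Among 34 synaptic adhesion genes, the neurexin gene Nrxn2 (-0.65, SE 0.11, adjusted p = 0.0353 by limma), which overlaps Slc22a12 on the other strand by 7188 bases, and the contactin-associated gene Cntnap5a (-1.14, SE 0.23, adjusted p = 0.0376 by limma) were lower. Clstn2, a calsyntenin of the postsynaptic membrane, was higher, with 202, 159.9, 178 and 219 CPM in PS males and 142, 109, 119 and 121 CPM in CTRL males. It had 136, 141, 132 and 124 CPM in PS females and 149.9, 170.0, 174 and 185 CPM in CTRL females. No PS library overlapped the CTRL libraries of its sex, and the log2 difference was 0.88 ± 0.15 (SE, adjusted p = 0.0353 by limma). The guidance cue Sema3a was lower and its receptor Nrp1 higher in the male effect. Sema3a had 0.901 ± 0.384 CPM in PS males, 3.30 ± 1.21 in CTRL males, 2.88 ± 1.40 in PS females and 2.12 ± 0.492 in CTRL females (SD, n = 4 each), and a difference of -1.79 ± 0.44 (SE, adjusted p = 0.0471 by limma). Nrp1 had 285, 215, 227 and 325 CPM in PS males and 146, 132, 129.7 and 135 CPM in CTRL males. It had 156, 178, 109 and 90.8 CPM in PS females and 140.2, 186, 174 and 204 CPM in CTRL females. Every PS male exceeded every other library, and the log2 difference was 1.29 ± 0.27 (SE, adjusted p = 0.0386 by limma). They were the 2 called genes of 65 in the list of semaphorin, ephrin, netrin and slit guidance.

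Glp2r, the receptor for glucagon-like peptide 2, had the largest difference of all called genes. It had 110.2, 54.4, 37.6 and 109 CPM in PS males and 33.5, 20.3, 17.8 and 16 CPM in CTRL males. It had 41.6, 39.3, 11.5 and 12.8 CPM in PS females and 30.8, 81.1, 57.9 and 50.3 CPM in CTRL females. PS males lay above CTRL males in all libraries, and in females the groups overlapped through LM21 of the CTRL group. The effects of 1.66 in males and -1.19 in females gave a log2 difference of 2.85 ± 0.67 (SE, adjusted p = 0.0446 by limma). LM25 and LM28, which were high in hippocampal markers, had the highest Glp2r values, and with the levels of the hippocampal and central amygdala lists as covariates its difference was 0.98 (limma, adjusted p = 0.362). Its call was lost in 12 of 27 other settings. Glp2r was not alone in this, as all 68 called genes chosen by the naming rule lost their call with these covariates. For 36 of them the difference was more than 1.5 times smaller. The gene lies on chromosome 11 from 67661502 to 67771153 (mm10) and overlaps Gas7 by 27489 and Rcvrn by 8008 bases on the other strand, and reads of these cannot be told apart from its own without the strand setting.

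Transcription factors were among the genes with the higher male effect. Of 76 tested homeobox, Sox, Fox, Zic, Tbx and POU genes 3 passed, all in this direction, with a list median of -0.02. Onecut2 had 9.41, 9.99, 15 and 15.4 CPM in PS males and 5.97, 8.75, 6.05 and 4.65 CPM in CTRL males. It had 7.12, 4.95, 4.47 and 3.88 CPM in PS females and 6.18, 8.03, 8.74 and 10.8 CPM in CTRL females. Male groups were apart and the female groups met at LM29 and LM21, with a log2 difference of 1.52 ± 0.32 (SE, adjusted p = 0.0387 by limma). Lhx9, a gene of medial amygdala and hypothalamic neurons, had a difference of 0.99 ± 0.24 (SE, adjusted p = 0.0468 by limma). Of the 5 tested markers of such neurons 4 had a negative difference, with a list median of -1.23, and Esr1 was called in the opposite direction to Lhx9. Foxp1, which is broadly used in the forebrain, had 136, 115, 135 and 126 CPM in PS males and 97.0, 90.4, 101 and 88.5 CPM in CTRL males. It had 91.3, 87.7, 97.9 and 62.9 CPM in PS females and 103, 100.5, 102 and 142 CPM in CTRL females. The effects of 0.38 in males and -0.38 in females were of equal size, the groups did not overlap in either sex, and the difference was 0.75 ± 0.18 (SE, adjusted p = 0.0456 by limma). Of 411 tested C2H2 zinc finger genes only Zfp831 passed, with the lower male effect (-0.79, SE 0.20, adjusted p = 0.0477 by limma).

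Matrix genes were called in both directions, with 3 of 97 tested genes higher and 2 lower in the male effect. Ecm2 had 5.95, 5.17, 6.28 and 5.45 CPM in PS males and 4.33, 3.65, 3.96 and 4.21 CPM in CTRL males. It had 3.84, 4.36, 3.56 and 4.36 CPM in PS females and 5.69, 6.21, 5.55 and 8.06 CPM in CTRL females. The groups were apart in both sexes, with a log2 difference of 0.97 ± 0.15 (SE, adjusted p = 0.0314 by limma). Ecm2 overlaps Cenpp on the other strand by 27980 bases. The collagen gene Col20a1 (0.74, SE 0.18, adjusted p = 0.0458 by limma) and the protease gene Adamts20 (0.73, SE 0.17, adjusted p = 0.0446 by limma) were higher too, and Hapln3, a hyaluronan link protein, was lower (-0.76, SE 0.20, adjusted p = 0.0478 by limma). Lum, a proteoglycan gene of fibroblasts, was higher (1.07, SE 0.25, adjusted p = 0.0446 by limma). It was the 1 called gene of 10 tested fibroblast and meningeal markers, of which 5 were positive and 5 negative, with a median of -0.02 (6 positive and a median of 0.06 with CPM not scaled further).

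Other genes with the higher male effect were Il1r1, the receptor of interleukin 1 (1.31, SE 0.34, adjusted p = 0.0493 by limma), Akain1, an inhibitor of kinase anchoring (1.35, SE 0.28, adjusted p = 0.0386 by limma), and Lhfpl2 (1.22, SE 0.29, adjusted p = 0.0458 by limma). Gmnc, which starts the program of multiciliated cells, had effects of 0.56 in males and -0.62 in females with no overlap in either sex (1.17, SE 0.31, adjusted p = 0.0492 by limma). Clec1a, a lectin of the C type (1.27, SE 0.32, adjusted p = 0.0471 by limma), Rnf182, an E3 ubiquitin ligase (1.01, SE 0.26, adjusted p = 0.0478 by limma), and Cecr2, a chromatin remodeling protein (0.99, SE 0.25, adjusted p = 0.0475 by limma), followed. Among genes with the lower male effect that fall in other lists were Rasgrf2 (-0.69), which couples calcium to Ras, and the sodium-proton exchanger gene Slc9a5 (-0.80), with limma adjusted p-values of 0.0477 and 0.0480.

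**Figure D2:**
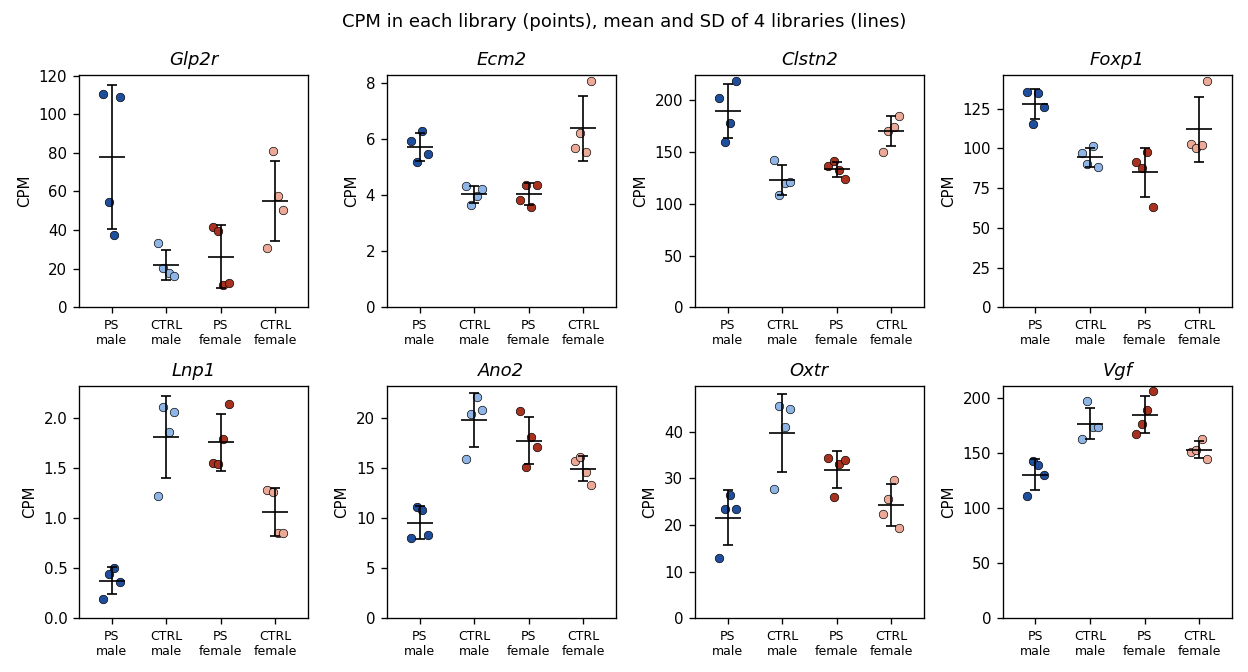
CPM (y axis, linear from 0) of 8 called genes in PS males, CTRL males, PS females and CTRL females, with 1 point per library and lines for the mean and the SD of 4 libraries. In the upper row PS males lie above CTRL males and PS females below CTRL females by their means, and in the lower row the order is turned round.

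**Figure D3:**
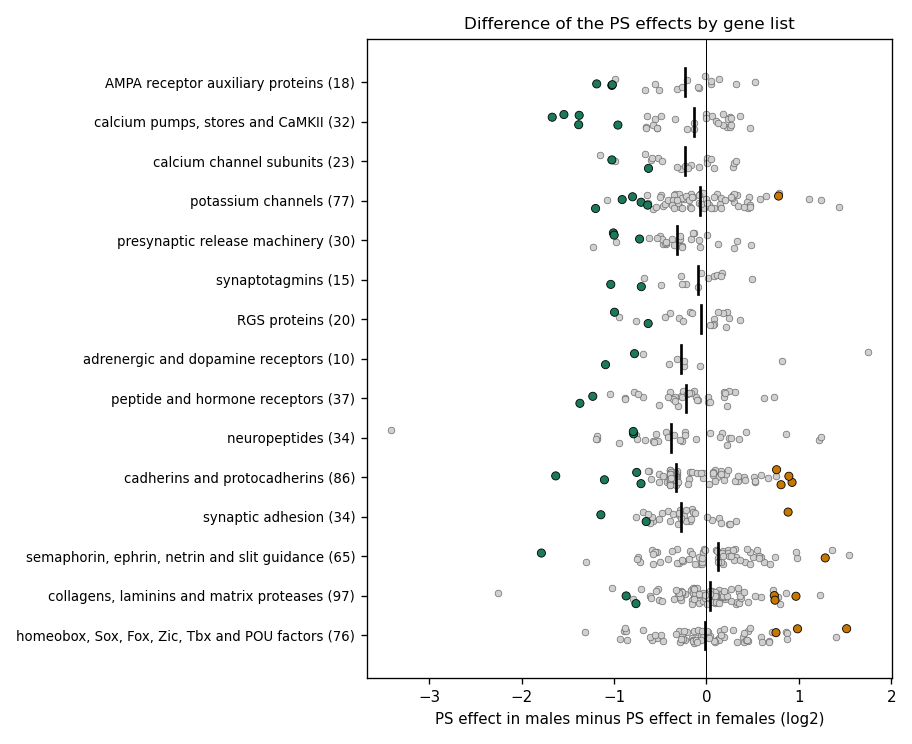
Log2 difference of the PS effects (x axis, males minus females) of each tested gene in 15 functional lists, with the number of tested genes in brackets. Filled green and orange points are called genes, grey points are not called, and the vertical bar is the list median. Called genes of channels, calcium handling and release lie left of 0 except for 1 potassium channel, and those of adhesion and matrix lie on both sides.

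Several lists of general cell function or of the stress response held no called gene, where 1.63% of all tested genes were called and 24.6% had an unadjusted p under 0.05. With limma, 0 of 31 immediate early genes passed (6 at an unadjusted p under 0.05), 0 of 21 glucocorticoid target genes (4), 0 of 20 clock genes (5), 0 of 77 cytosolic ribosomal proteins (7), 0 of 84 oxidative phosphorylation subunits (4) and 0 of 46 proteasome subunits (7). The medians of these lists lay between -0.09 and 0.24. The glucocorticoid targets had a median effect of 0.32 in males and 0.03 in females on the log2 scale.

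Markers of several cell types differed in 1 direction as lists, while few passed one by one. Of 14 hippocampal markers 0 passed with limma (9 at an unadjusted p under 0.05), yet all 14 had a positive difference, 9 were reversing by size, and the median was 1.20, against 0.01 over all tested genes. The dentate gyrus gene C1ql2 had 254, 71.5, 65.5 and 184 CPM in PS males and 65.5, 20.4, 39.7 and 31.2 CPM in CTRL males. It had 88.3, 84.3, 27.2 and 26.2 CPM in PS females and 75.7, 131, 95.5 and 122 CPM in CTRL females. Both sexes overlapped, and its log2 difference of 2.77 ± 0.73 (SE, adjusted p = 0.0506 by limma) just missed. The 9 thalamic and habenular markers all had a positive difference too, with a median of 0.68 and 0 called (limma, 3 at an unadjusted p under 0.05). The 7 tested central amygdala and intercalated markers had a median of -0.67, with 5 negative and 0 called (limma, 3 at an unadjusted p under 0.05). Of 16 interneuron markers 13 were negative, with a median of -0.38, and Npy alone passed. The part of these cell types in the called differences was not tested beyond the fit with covariates of list levels.

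The 14 microglia markers all had a negative difference (13 of 14 with CPM not scaled further), with a median of -0.28, 10 of them at an unadjusted p under 0.05 and 0 called by limma. Their summed level ran from 230.2 to 284 CPM in PS males, from 278 to 311 CPM in CTRL males, from 260.2 to 282 CPM in PS females and from 269.9 to 296 CPM in CTRL females. The 14 oligodendrocyte markers were all positive with a median of 0.65 and 0 called (limma, 1 at an unadjusted p under 0.05), and the median effect was 0.70 in males and 0.05 in females. They were not a reversing list. Their summed level ran from 334 to 707 CPM in PS males and from 187 to 350 CPM in CTRL males. In PS females it ran from 81.5 to 429 CPM and in CTRL females from 105 to 286 CPM. Markers of a list were measured in the same libraries, so a shared sign is not a set of separate results. Astrocyte markers were positive in 11 of 13 genes (median 0.26) and endothelial markers in 12 of 12 (median 0.22), with 0 called in both lists (limma, 6 and 5 at an unadjusted p under 0.05). The 4 tested Schwann cell markers were negative (median -1.48, limma, 0 called and 2 at an unadjusted p under 0.05), with the highest level in LM29 of the PS females. Of 6 blood cell markers only S100a9, a neutrophil protein, passed, with 0.0983, 0.198, 0.325 and 0.410 CPM in PS males and 0.398, 0.529, 0.906 and 0.343 CPM in CTRL males. It had 0.478, 0.190, 0.318 and 0.158 CPM in PS females and 0.0233, 0.0703, 0.0231 and 0.0244 CPM in CTRL females, a log2 difference of -1.02 ± 0.26 (SE, adjusted p = 0.0475 by limma). CTRL females stood below all other libraries for it. Its mean passed the 0.5 CPM filter in CTRL males alone, the group where it was highest, and all its values were under 1 CPM. Its call thus rests in part on that filter, and without LM19 the gene was not tested.

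**Figure D4:**
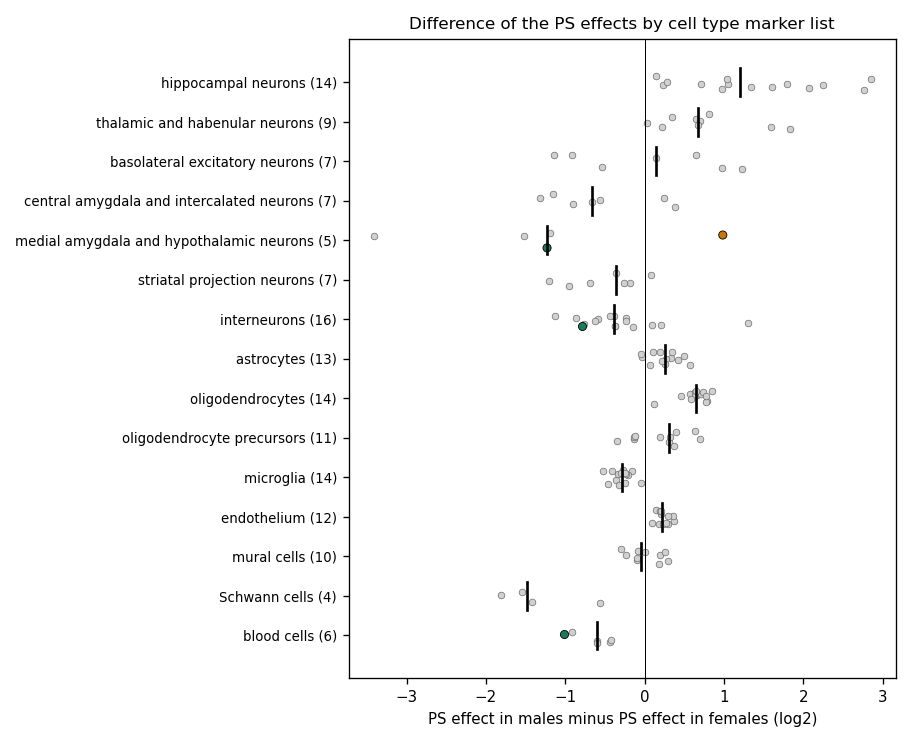
Log2 difference of the PS effects (x axis, males minus females) of each tested marker in 15 cell type lists, with the number of tested markers in brackets. Grey points are not called, green and orange points are called, and the bar is the list median. All hippocampal, thalamic, oligodendrocyte and endothelial markers lie right of 0, and all microglia, Schwann cell and blood cell markers lie left of 0, of which 1 microglia marker changed sides with CPM not scaled further.

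The levels of the called genes were set beside those of the hippocampal markers in each library. The mean log2 level of the 175 genes with the lower male effect ran from 3.83 to 4.05 in PS males, from 4.45 to 4.66 in CTRL males, from 4.40 to 4.77 in PS females and from 4.18 to 4.43 in CTRL females. For the 51 genes with the higher male effect it ran from 4.24 to 4.52 in PS males, from 3.65 to 3.89 in CTRL males, from 3.50 to 3.98 in PS females and from 3.98 to 4.33 in CTRL females. PS males lay apart from CTRL males in both sets, and in females the groups met in both sets, through LM30 of PS and LM21 of CTRL. In 4 of 4 groups the library with the lowest hippocampal level also had the lowest level of the 51 genes and the highest level of the 175 genes (3 of 4 for both sets where all levels were scaled by TMM). In 3 of 4 groups the library with the highest hippocampal level had the highest level of the 51 genes and the lowest level of the 175 genes (3 and 2 of 4 with TMM). The first principal component of the variation within groups held 53.1% of that variation for the 226 genes, against 27.4% for all tested genes.

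**Figure D5:**
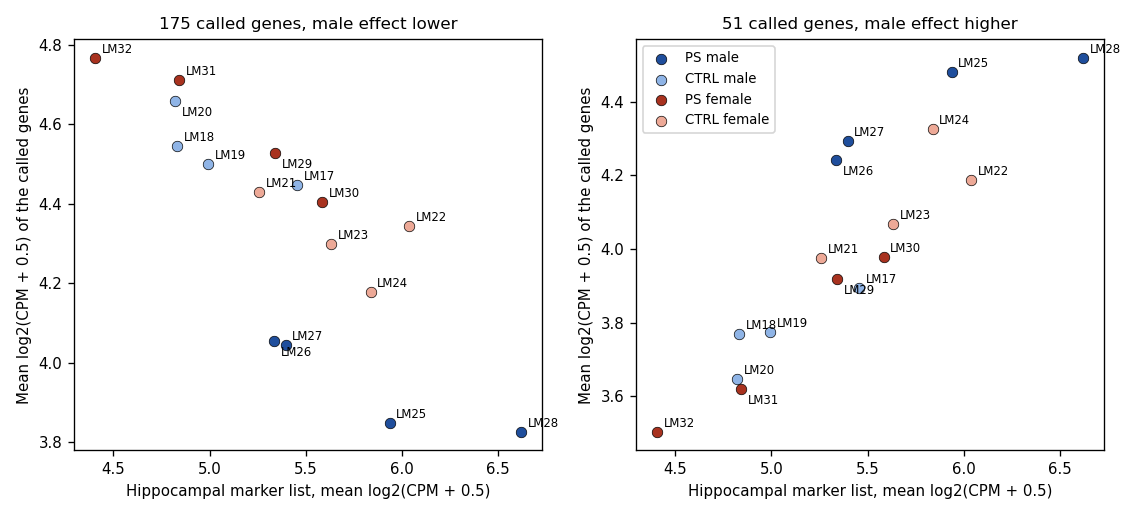
Mean log2(CPM + 0.5) of the 14 hippocampal markers (x axis) against the mean log2(CPM + 0.5) of the 175 called genes with the lower male effect (left) and of the 51 with the higher male effect (right), 1 point per library. The level of the 51 genes is lowest in LM32 and highest in LM28, the ends of the hippocampal range. At a middle hippocampal level, PS males LM26 and LM27 have low values of the 175 genes. Their values of the 51 genes (4.24 and 4.29) are above those of CTRL male LM17 (3.89) and PS females LM29 (3.92) and LM30 (3.98) at similar hippocampal levels. Both sets were chosen by the group difference in these same libraries, so this separation is no test of the part of the hippocampal level.

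With the mean levels of the hippocampal list and of the central amygdala and intercalated list as covariates, 0 genes passed with limma, with 1989 genes at an unadjusted p under 0.05 against 3402 without the covariates. All 226 genes kept the sign of their difference in that fit, and the median size was 0.63 times that without covariates. For 36 of the 68 called genes chosen by the naming rule the difference was more than 1.5 times smaller. Without LM25 and LM28 together, the PS males highest in the hippocampal list, 184 genes passed, of which 142 were among the 226 and 148 had the lower male effect. In that fit 0 genes passed between PS and CTRL males with limma, where 2 PS males remained. The counts also changed when single libraries were left out. Such fits kept 1 removed direction as a term, and the fit without LM25 and LM28 kept 0. The main fit kept 2, so the model changed together with the libraries. With all 16 libraries and the removed directions not kept, 469 genes passed. Leaving out 1 PS male gave 145 called genes (LM25) or 341 (LM26), and leaving out 1 CTRL male gave 352 (LM17) or 79 (LM20). Leaving out 1 PS female gave 428 (LM29), 550 (LM30), 87 (LM31) or 144 (LM32), and leaving out 1 CTRL female gave 441 (LM21), 371 (LM23) or 61 (LM24). The count was 9 with a variance prior that does not follow mean expression.

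Of the 68 called genes chosen by the naming rule, 17 kept their call without any 1 of the 16 libraries. They were Ano2, Cdh4, Cdh11, Clstn2, Cntnap5a, Ecm2, Filip1, Kcnf1, Krt9, Lnp1, Nrxn2, Pappa2, Rgs14, Samd3, Syt10, Trpa1 and Vgf. Leaving out CTRL female LM24 ended the call for 51 of the 68, CTRL male LM20 for 43, PS female LM31 for 40, PS male LM25 for 26, CTRL male LM18 for 24, PS female LM32 for 23, CTRL female LM22 for 19, CTRL male LM19 for 18 and PS male LM27 for 1. The limma adjusted p of these genes was at most 0.0732 in such fits, and all 68 kept their sign wherever they were tested. S100a9 did not pass the filter on low values without LM19 and was not tested there. Glp2r, Oxtr, Esr1, Npy, Dbh, Stx1a, Camk2d and Nrp1 were among those that lost the call in at least 1 of the fits without 1 library.

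RefSeq promoters, taken as 250 bases before to 50 after an annotated start (GRCm38.p6), were at hand for 125 of the 175 genes with the lower male effect, for 38 of the 51 with the higher one and for 10660 of all tested genes. Short motifs were searched on both strands and are given as a description. The E-box CAGATG, bound by NeuroD-type factors of neurons, was found in 27 of the 125 genes (21.6%), in 3 of the 38 (7.89%) and in 14.2% of all tested genes. The AP-1 motif TGANTCA was found in 12 (9.60%), in 1 (2.63%) and in 6.10%. The cAMP response element TGACGTCA was found in 1 (0.80%), in 2 (5.26%) and in 3.58%, and the EGR motif GCGTGGGCG in 1 (0.80%), in 0 and in 1.38%. No motif overlapped another in the promoters shown. These are promoters of Filip1 and Ano2, which kept their call without any library and hold the E-box, of Clstn2, which holds the cAMP response element, and of Glp2r, which had the largest difference and holds none of the motifs. They are written 5′ to 3′ on the strand of the gene, with motifs in capitals. They lie at chr9:79830933-79831232 (minus strand), chr6:125710938-125711237 (plus strand), chr9:98033118-98033417 (minus strand) and chr11:67771104-67771403 (minus strand).
Filip1: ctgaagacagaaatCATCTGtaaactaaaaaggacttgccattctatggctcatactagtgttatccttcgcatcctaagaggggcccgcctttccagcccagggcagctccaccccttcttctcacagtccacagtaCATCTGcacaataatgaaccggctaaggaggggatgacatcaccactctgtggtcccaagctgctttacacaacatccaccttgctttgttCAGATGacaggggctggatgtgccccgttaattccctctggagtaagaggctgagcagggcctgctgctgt
Ano2: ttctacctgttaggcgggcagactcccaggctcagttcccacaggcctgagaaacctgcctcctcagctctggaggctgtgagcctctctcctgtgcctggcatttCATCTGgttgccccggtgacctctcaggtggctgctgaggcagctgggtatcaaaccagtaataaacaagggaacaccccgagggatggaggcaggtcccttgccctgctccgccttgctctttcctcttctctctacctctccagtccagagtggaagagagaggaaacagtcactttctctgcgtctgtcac
Clstn2: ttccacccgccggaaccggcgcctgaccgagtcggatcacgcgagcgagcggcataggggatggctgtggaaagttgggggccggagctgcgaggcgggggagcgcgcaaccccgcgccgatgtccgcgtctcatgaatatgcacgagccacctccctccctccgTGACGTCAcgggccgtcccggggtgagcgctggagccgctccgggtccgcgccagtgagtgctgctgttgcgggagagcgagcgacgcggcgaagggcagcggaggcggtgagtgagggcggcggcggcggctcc
Glp2r: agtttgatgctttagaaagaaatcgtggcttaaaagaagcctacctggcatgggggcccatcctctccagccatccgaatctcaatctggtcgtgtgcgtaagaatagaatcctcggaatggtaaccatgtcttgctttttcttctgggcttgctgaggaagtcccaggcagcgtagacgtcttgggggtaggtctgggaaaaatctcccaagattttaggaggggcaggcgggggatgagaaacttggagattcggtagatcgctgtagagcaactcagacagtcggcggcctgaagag
Filip1 has the E-box at 236, 112 and 21 bases before the start, Ano2 at 144 bases before it, and Clstn2 has its element at 85 bases before it. Filip1 has 4 annotated starts and Ano2 3, and the promoter shown is the 1 with the motif.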

How the data were processed

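Amygdala RNA of 16 mice (4 groups of 4 libraries) was made into directional poly(A) libraries. The authors aligned the reads to mm10 with STAR, counted them per gene with featureCounts, and applied RUVSeq and edgeR; versions and the strand setting are not given in the sources used here. The deposited columns named as raw hold corrected values, treated here as a score and not as counts, since 2 within-group directions had been removed from them. The deposited CPM values were computed by the authors from these scores and were used for all results. Further deposited columns hold the log2 fold changes, p-values and FDR values of the authors' own comparisons and were not used. No counting interval is given, and precision rests on 4 libraries per group.

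CPM was scaled with TMM factors computed on the deposited values (0.95 to 1.05), and log2(CPM + 0.5) was fitted in limma 3.58.1 (R 4.3.3) with 1 mean per group over all 16 libraries and the 2 removed directions kept as terms, leaving 10 residual degrees of freedom. Variances were moderated along mean expression and p-values adjusted (Benjamini-Hochberg) over 14392 tested genes, X, Y and unplaced genes included; counts leave these out. A gene was called at an adjusted p under 0.05 and a fold over 1.5. This design replaces the count model of the authors because the values are not counts.

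The part of the data studied and the gene lists were chosen with earlier results of these data known, so the lists lend no independent support. Named are the 10 largest called genes per direction whose libraries do not overlap in at least 1 sex, the 6 called reversing genes per direction with the largest smaller effect, and up to 4 called members of each list by adjusted p, plus the 3 most abundant markers of each cell type; predicted genes are counted, not named, and 1 gene that the rule chose is not reported here. Abundant markers without a call are described through their lists. The regular expression of the glutamate receptor list was corrected after it had caught an antisense transcript. Prox1, Isl1, Foxp2, Prkcd, Xist, Ddx3y and the basolateral markers were chosen outside this rule as checks of the tissue and labels. Lists are described by counts and medians, with no test. Library levels of lists are means of log2(CPM + 0.5) without further scaling. Other scalings, pseudocounts, filters, variance priors, left-out libraries and covariates were tried as alternatives. Coordinates and overlaps are those of GRCm38 (mm10) in GENCODE M21, which matched 16890 of 17293 genes; RefSeq matched another 131 by symbol and 240 by synonym. Promoters are from RefSeq (GRCm38.p6).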

Additional observations from a re-analysis of the deposited data

Results flagged for a closer look

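The 226 genes whose PS effect differed between males and females by limma are themselves a difference between groups. Among the named ones, the following also had PS and CTRL libraries apart in both sexes, which adds no separate test. The log2 difference, males minus females, was -1.98 for Lnp1 and -0.79 for Vgf. It was 0.76 for Cdh11, 0.88 for Clstn2, 0.74 for Col20a1, 0.97 for Ecm2, 0.75 for Foxp1, 1.17 for Gmnc and 0.81 for Pcdhb2.

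A single library stood far from the other 3 of its group in 9 of the 272 groups of values of the named called genes, where chance gives about 1 in 20 groups. Among PS males, LM28 had 66.7 CPM of Cdh13 (others 88.1 to 88.7) and 9.65 CPM of Doc2a (others 13.2 to 13.7). Among PS females, LM30 had 25.9 CPM of Oxtr (others 33.1 to 34.4) and LM31 had 2.88 CPM of Col20a1 (others 3.44 to 3.48). Among CTRL males, LM20 had 38.7 CPM of Cntnap5a (others 32 to 32.8) and 27.2 CPM of Krt9 (others 17.8 to 18.5). Among CTRL females, LM24 had 142 CPM of Foxp1 (others 100.5 to 103) and 102 CPM of Rasgrf2 (others 122 to 124), and LM22 had 0.0703 CPM of S100a9 (others 0.0231 to 0.0244).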

How the results depend on the processing

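No paired analysis was possible because the sources used here do not say whether males and females shared litters. The number of called differences (226) was 79 with no filter on low values, 9 with no mean trend in the variance prior, 469 with the removed directions not kept and 0 with the list levels as covariates, and 61 to 550 without 1 library. In males, PS against CTRL (143 genes) gave 54, 46, 290 and 0 under the same 4 settings, 0 without PS males LM25 and LM28 together, and 18 to 302 without 1 library. It gave 302 without LM17, 26 without LM18, 36 without LM19, 18 without LM20, 26 without LM25, 249 without LM26, 265 without LM27, 87 without LM28, 226 without LM30 and 265 without LM32. The reversing genes (83) numbered 35, 3, 153 and 0 under the 4 settings and 15 to 248 without 1 library. They numbered 31 without LM20, 189 without LM21, 131 without LM23, 15 without LM24, 197 without LM29, 248 without LM30, 30 without LM31 and 36 without LM32. Fits without 1 library kept 1 removed direction as a term, and the fit without LM25 and LM28 kept 0, against 2 in the main fit. The cause of these shifts was not tested. In females 0 genes passed in every setting. The other scalings, pseudocounts of 0.1 and 1, a stricter filter and adjustment without X and Y gave 211 to 241 called differences. All 68 called named genes kept their sign in every setting in which they were tested. Some genes did not pass the filter in every setting. Of the values under alternatives, 1368 were on the same side of the threshold and 456 no longer past it. The depth in reads is unknown, since the deposited values are corrected.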
